A study of Mus musculus with 6 samples.

Results

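The 37 genes of the mouse mitochondrial genome encode 13 proteins, 2 ribosomal RNAs and 22 transfer RNAs, and all 37 were found, by a symbol starting with mt-, among 47728 genes with counts in cerebral cortex. Cortex was taken from FAD5x mice and from wild-type C57BL/6 mice labelled Control, with 3 RNA sequencing libraries in each group. FAD5x mice model Alzheimer's disease through transgenes driven by the neuronal Thy1 promoter. The labels give no age, sex or background strain for them. They also do not say whether each library is a separate animal, and p-values therefore cover the spread between these libraries alone, which may be technical. Total counts were 17972967 to 24137936 in FAD5x and 17363946 to 18188112 in Control. FAD5x replicates 1 and 2 have related library names, AD_2 and AD_2_B, and the chi-square per degree of freedom between their counts was 62.8, against 20.03 to 59.7 for the other pairs within a group. Xist was counted 3 times in Control replicate 1, against 10346 to 22631 times elsewhere, and Y-linked genes 3124 times there, against at most 9 times in the other 5 libraries. By these counts Control replicate 1 was male and the other 5 libraries female, so sex was not balanced between the groups. The part of sex in the values below was not tested.

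Mitochondrial DNA is transcribed from both strands as long precursors that run nearly around the circle. Transfer RNAs stand between most of the messenger and ribosomal RNAs, and their excision releases the RNAs on either side. The proteins are core subunits of the respiratory chain and of ATP synthase, which in neurons supply most of the ATP used for ion pumping and transmission. Complex I takes mt-Nd1 to mt-Nd6 and mt-Nd4l, complex III takes mt-Cytb, complex IV takes mt-Co1 to mt-Co3, and ATP synthase takes mt-Atp6 and mt-Atp8. The light strand carries mt-Nd6 and 8 transfer RNA genes, and the heavy strand carries the other members.

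A pair of overlapping frames and a transfer RNA gene are shown because the single member that passed the test lies among them. In the GENCODE M21 annotation of GRCm38, mt-Tk, the lysine transfer RNA gene, is followed by mt-Atp8 and then mt-Atp6 on the heavy strand. The last 43 bases of mt-Atp8, in capitals, are also the first 43 of mt-Atp6, so a read from them belongs to both genes.
mt-Tk: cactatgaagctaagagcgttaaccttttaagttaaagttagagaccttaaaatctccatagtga
mt-Atp8: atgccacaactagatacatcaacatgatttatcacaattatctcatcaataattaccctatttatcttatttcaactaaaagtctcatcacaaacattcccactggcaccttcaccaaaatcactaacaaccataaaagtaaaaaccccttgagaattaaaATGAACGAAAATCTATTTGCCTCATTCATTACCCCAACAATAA
mt-Atp6, first 90 bases: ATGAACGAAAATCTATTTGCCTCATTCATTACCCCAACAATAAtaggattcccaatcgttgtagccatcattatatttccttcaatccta

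The share of mitochondrial transcripts did not separate the genotypes, and the Control libraries spanned the FAD5x ones. Replicates 1, 2 and 3 are given in that order throughout. The 37 genes together held 8.66, 9.53 and 8.68% of the total count in the FAD5x libraries and 7.03, 10.3 and 8.13% in the Control libraries. The means were 8.96% ± 0.498 in FAD5x and 8.48% ± 1.66 in Control (SD, n = 3 each; two-sided exact permutation test, p = 0.7, where 0.1 is the smallest p that 3 against 3 allows). Control replicate 1 was the lowest library and Control replicate 2 the highest, with the FAD5x libraries between them. The log2 ratio of FAD5x over Control was 0.10, and it was -0.03 without Control replicate 1 and 0.24 without Control replicate 2. The 95% Wilson interval of each share extended at most 0.0140 percentage points either side, which covers counting error only.

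The classes of RNA gave the same lowest and highest library. The 13 protein genes held 8.05, 8.82 and 8.05% of the total in FAD5x and 6.57, 9.53 and 7.55% in Control. The ribosomal RNAs mt-Rnr1 and mt-Rnr2, the structural RNAs of the mitochondrial ribosome, held 0.599, 0.700 and 0.609% in FAD5x and 0.450, 0.747 and 0.568% in Control. The transfer RNA genes held 0.0140, 0.0135 and 0.0134% in FAD5x and 0.00930, 0.0148 and 0.0132% in Control, so that their counts are a small remainder beside the messenger RNAs. Each of these differences had an exact permutation p of 0.7. The library kit is not named, and recovery of each RNA class was not measured. Shares of counts may thus differ from shares of RNA in the tissue. The ribosomal RNAs were 6.91, 7.34 and 7.02% of the 37-gene sum in FAD5x and 6.41, 7.26 and 6.98% in Control, and these shares overlapped. The light-strand genes mt-Nd6 and 8 transfer RNA genes held 0.135, 0.147 and 0.145% of the total in FAD5x and 0.104, 0.182 and 0.139% in Control, which also overlapped. Whether strand was used in counting is not stated, so this share can include heavy-strand RNA.

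**Figure D1:**
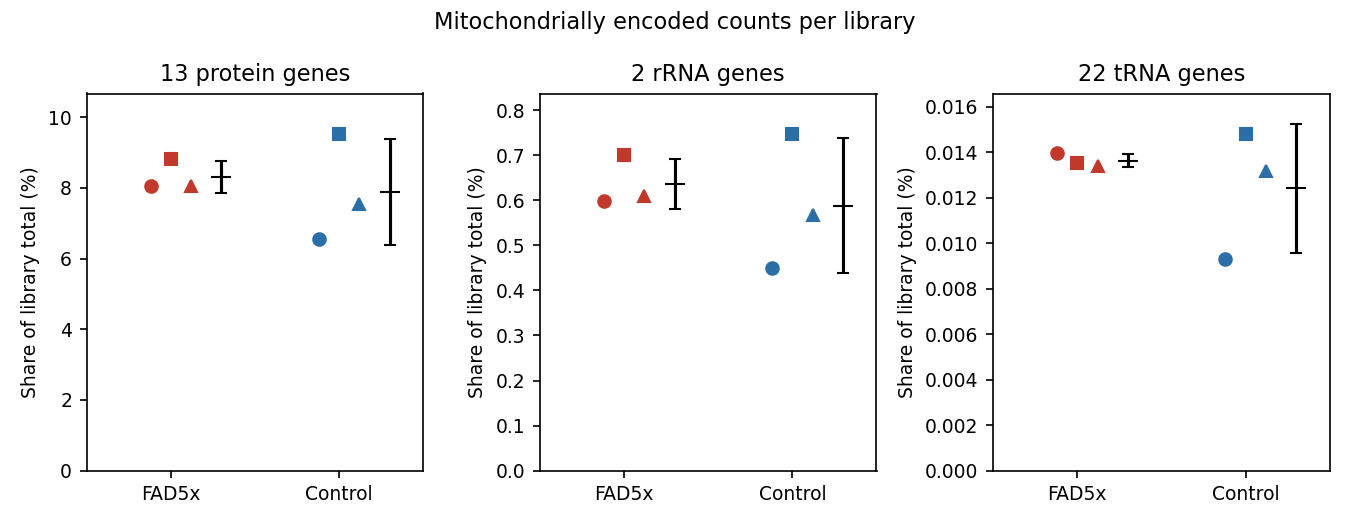
Share of the library total, in percent, of the 13 protein, 2 rRNA and 22 tRNA genes in each FAD5x and Control library (circle, square and triangle are replicates 1, 2 and 3; the bar is the mean with its SD). In each panel Control replicate 1 is the lowest and Control replicate 2 the highest of the 6 libraries.

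Levels per kilobase of annotated gene length spread widely over the genome. On the CPM scale (counts per 1000000, scaled by the trimmed mean of M values) divided by length in kilobases, mt-Co1, the catalytic subunit of complex IV, averaged 17373 in FAD5x and 15801 in Control, the highest level of the 37 in both groups. The next were mt-Atp6, the proton-channel subunit of ATP synthase, with 13064 in FAD5x and 12894 in Control, and mt-Co2, the copper subunit that accepts electrons from cytochrome c, with 11272 in FAD5x and 10653 in Control. The lowest messenger RNA by these counts was mt-Atp8, a small membrane subunit of ATP synthase, with 215 in FAD5x and 110.2 in Control. It shares a transcript with mt-Atp6 in mammals, but only 161 of its 204 bases lie outside that gene. How reads in the shared bases were counted is not stated, so the mt-Atp8 value may depend on it. Genes with and without a nuclear copy may also stand on different scales, as given below, and so may the classes of RNA. The next lowest, mt-Nd3, stood at 1358 in FAD5x and 1428 in Control. mt-Nd6, the messenger of the light strand, stood at 2573 in FAD5x and 2549 in Control. The sources do not state whether strand was used in counting. Counts of mt-Nd6 and of the light-strand transfer RNA genes can therefore include heavy-strand RNA of the same stretch.

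Of the 30 members that passed the filter on low counts, 1 rose in FAD5x and 0 fell, where 1.76% of all 17074 tested genes rose and 1.39% fell (edgeR quasi-likelihood test, Benjamini-Hochberg adjusted p below 0.05). No member was lower at an unadjusted p under 0.05 by edgeR, and 0 were called lower by limma-voom and by DESeq2. Median log2 fold changes were 0.07 for the 13 protein genes, 0.14 for the 2 ribosomal RNAs and 0.15 for the 15 tested transfer RNA genes, beside 0.02 for all tested genes. Without FAD5x replicate 2 the protein gene median was -0.06 and without Control replicate 1 it was -0.05, and without Control replicate 2 it was 0.25.

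**Figure D2:**
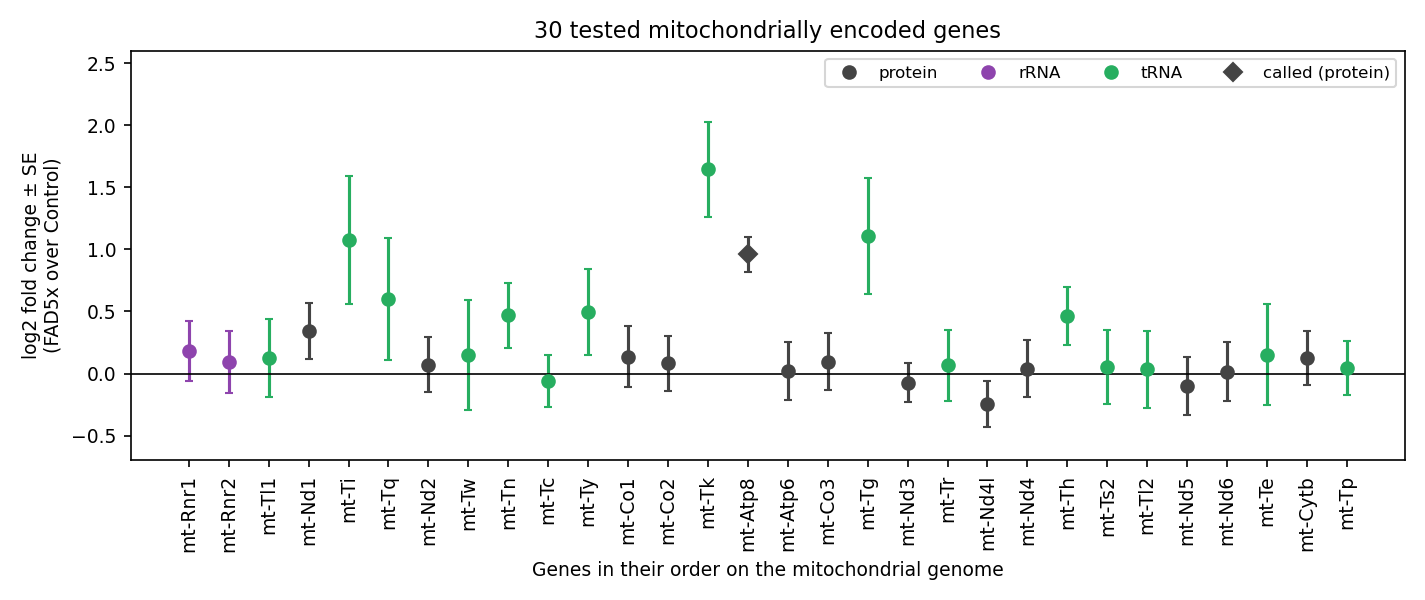
Log2 fold change of FAD5x over Control with its standard error for the 30 tested members, in their order on the mitochondrial genome, coloured by gene class. mt-Atp8, drawn as a diamond, is the 1 member called, mt-Tk next to it has the highest value, and the 12 other protein genes lie between -0.25 and 0.34.

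The member that rose was mt-Atp8, 1.95-fold higher in FAD5x (log2 fold change 0.96 ± 0.14 SE, n = 3 per group; edgeR, adjusted p = 0.0143). FAD5x libraries held 1112, 919 and 788 counts of it, or 45.8, 44.5 and 41.1 CPM, and Control libraries 363, 468 and 381 counts, or 19.95, 26.3 and 21.3 CPM. The groups did not overlap, as in 14.1% of all tested genes with FAD5x higher and 13.2% with FAD5x lower. The call ended without Control replicate 1 (adjusted p = 0.0711) or Control replicate 3 (adjusted p = 0.0589), both by edgeR, and the log2 fold change was 0.88 to 1.08 over the 6 fits that each left out 1 library.

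The neighbours of mt-Atp8 differed from each other. mt-Tk, just upstream, had 40, 36 and 36 counts in FAD5x and 8, 13 and 9 in Control, or 1.65, 1.74 and 1.88 CPM in FAD5x libraries and 0.440, 0.729 and 0.502 CPM in Control. These groups did not overlap, and the log2 fold change of 1.64 ± 0.39 missed the threshold by edgeR (adjusted p = 0.0590) and passed it by DESeq2 (adjusted p = 0.0203). mt-Atp6, downstream and on the same messenger RNA, had 8062, 10322 and 8304 CPM in FAD5x libraries and 6806, 10804 and 8733 CPM in Control, with groups that overlapped (log2 fold change 0.02 ± 0.23, adjusted p = 0.976 by edgeR). mt-Co2, upstream of mt-Tk, differed by 0.08 ± 0.22 on the log2 scale (edgeR, adjusted p = 0.874). The longer genes on either side of the short pair thus missed the threshold.

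A copy of mt-Atp6 in the nuclear genome was set beside mt-Atp8, a comparison chosen after the data had been seen. Gm10925, an unprocessed pseudogene on chromosome 1, is identical to the first 678 bases of mt-Atp6 and had more counts than mt-Atp6 in every library. The surplus was 17838, 17461 and 14089 counts in FAD5x and 14631, 18343 and 14957 in Control. Scaled, it was 734, 845 and 735 CPM in FAD5x libraries and 804, 1029 and 835 CPM in Control, with groups that overlapped (two-sided exact permutation test, p = 0.3). The mt-Atp8 count was 6.23, 5.26 and 5.59% of that surplus in FAD5x and 2.48, 2.55 and 2.55% in Control. The sources do not state how reads in overlapping genes were counted, and what the surplus holds was not tested.

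**Figure D3:**
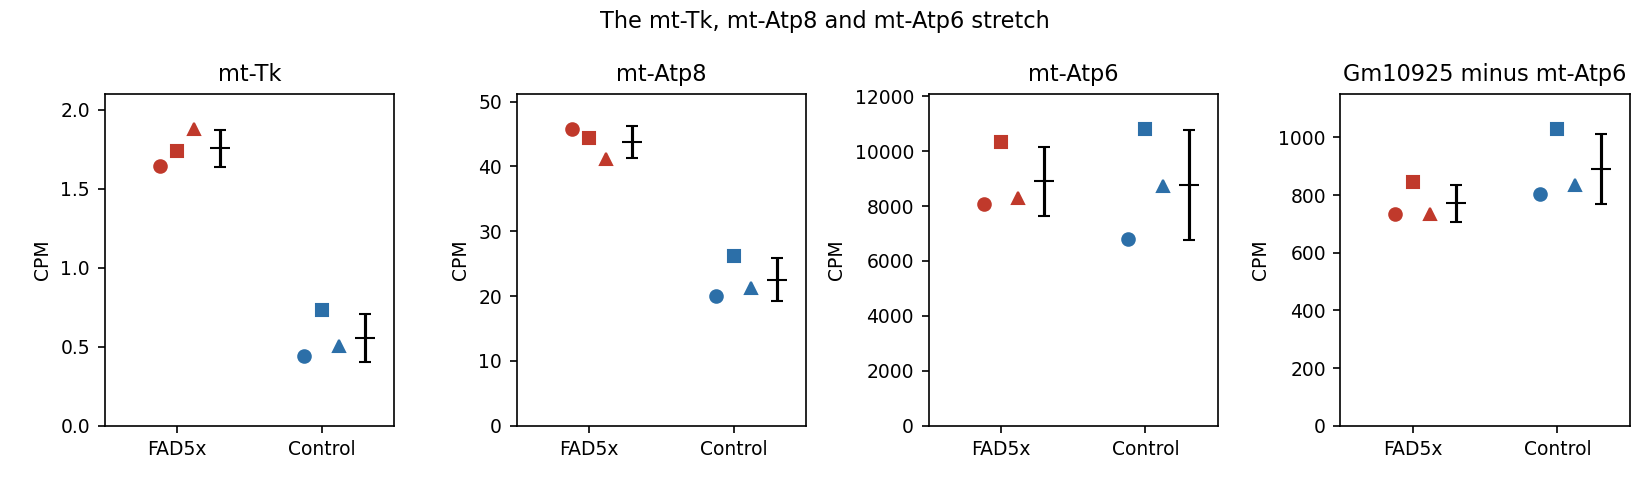
Level in CPM of mt-Tk, mt-Atp8 and mt-Atp6, and of the Gm10925 count minus the mt-Atp6 count, in each FAD5x and Control library (circle, square and triangle are replicates 1, 2 and 3; the bar is the mean with its SD). The groups separate in the first 2 panels and overlap in the other 2.

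The complex I, III and IV genes and both ribosomal RNAs did not pass the test. The complex I gene with the highest log2 fold change was mt-Nd1, a membrane subunit at the junction with the quinone site, with 6040.3, 7565 and 5816 CPM in FAD5x libraries and 4084, 6253 and 4994 CPM in Control (log2 fold change 0.34 ± 0.22, adjusted p = 0.431 by edgeR). The lowest was mt-Nd4l, a small membrane subunit, with 1155, 1389 and 1034 CPM in FAD5x libraries and 1205, 1558 and 1482 CPM in Control (log2 fold change -0.25 ± 0.18, adjusted p = 0.489 by edgeR). In both genes the groups overlapped. mt-Nd2, mt-Nd3, mt-Nd4, mt-Nd5 and mt-Nd6 had log2 fold changes between -0.10 and 0.07, with standard errors of 0.16 to 0.24. mt-Cytb had a value of 0.12 ± 0.22, and mt-Co1 and mt-Co3 had 0.14 ± 0.25 and 0.10 ± 0.23. The ribosomal RNAs had 2472, 3428 and 2343 CPM in FAD5x libraries and 1858, 3036 and 2363 CPM in Control for mt-Rnr1, and 3479, 4235 and 3364 CPM in FAD5x libraries and 2438, 4588 and 3358 CPM in Control for mt-Rnr2, and both overlapped between the groups.

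Because the summed messenger level varied between libraries of 1 genotype, each of the 13 was also set against that sum within its own library. On this scale 6 of 13 did not overlap between the groups: mt-Nd1, mt-Co1 and mt-Atp8 took larger shares in FAD5x, and mt-Nd4l, mt-Nd4 and mt-Nd5 smaller ones. Against the same sum, 5.74% of the 17061 other tested genes lay higher without overlap and 8.18% lower, but those genes also carry the spread of the sum itself, which cancels among the 13. Each of the 6 had an exact permutation p of 0.1, the smallest possible, and an adjusted p of 0.217 over the 13 genes. This test could therefore not bring any share below a threshold of 0.05. Shares of 1 sum are tied to each other, since one cannot grow without another shrinking.

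mt-Nd1 was 7.55, 7.84 and 7.70% of the messenger sum in the FAD5x libraries and 6.52, 6.43 and 6.56% in the Control libraries. The means were 7.70% ± 0.143 in FAD5x and 6.50% ± 0.0658 in Control (SD, n = 3 each), a 1.18-fold larger share in FAD5x. Every FAD5x library lay above every Control library, with a gap wider than the spread within either group. mt-Nd4l was 1.44, 1.44 and 1.37% in FAD5x and 1.92, 1.60 and 1.95% in Control, 0.780 times the Control share. mt-Nd4, which shares a messenger RNA with mt-Nd4l, was 9.88, 9.64 and 9.49% in FAD5x and 9.99, 10.1 and 10.1% in Control. mt-Nd5, the last heavy-strand complex I gene, was 4.81, 4.61 and 4.80% in FAD5x and 5.04, 5.68 and 5.38% in Control. The complex I messengers thus lay on both sides of their Control shares, and mt-Nd2, mt-Nd3 and mt-Nd6 overlapped between the groups.

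mt-Atp8 was 0.0572, 0.0461 and 0.0544% of the sum in FAD5x and 0.0318, 0.0270 and 0.0279% in Control, 1.81 times the Control share. mt-Co1, the largest component, was 32.4, 31.8 and 31.7% in FAD5x and 31.3, 31.6 and 30.1% in Control, a gap that was small beside its size. With mt-Atp8 joined to mt-Atp6, and mt-Nd4l to mt-Nd4, the first pair overlapped between the groups and the second stayed lower in FAD5x. The 95% Wilson interval of each share extended at most 0.0851 percentage points either side.

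**Figure D4:**
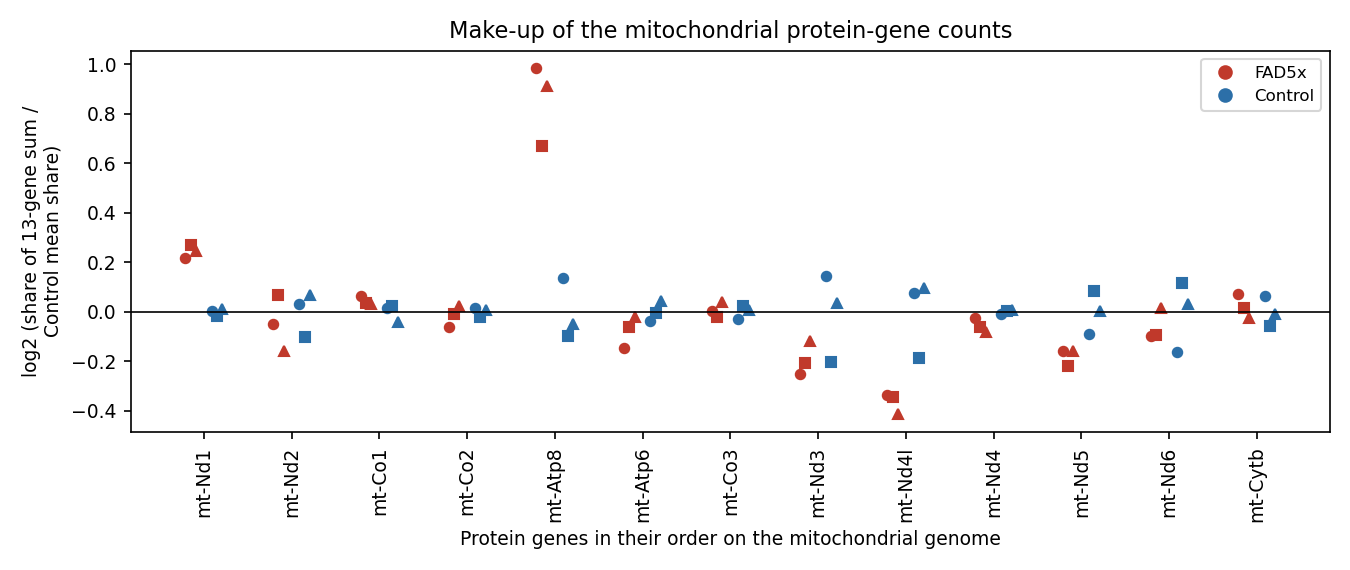
Share of each protein gene in the summed count of the 13, per library, as a log2 ratio to the mean Control share (red, FAD5x; blue, Control; circle, square and triangle are replicates 1, 2 and 3). mt-Nd1 and mt-Atp8 lie higher in all 3 FAD5x libraries, and mt-Nd4l and mt-Nd5 lower.

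The transfer RNA genes were thinly covered. mt-Tp, the proline transfer RNA gene of the light strand, held 47.3, 43.3 and 44.6% of all transfer RNA counts in FAD5x and 45.5, 42.5 and 57.0% in Control. Its sequence is shown because no other transfer RNA gene carried as large a part of this class.
mt-Tp: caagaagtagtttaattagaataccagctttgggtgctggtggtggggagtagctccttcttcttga
Its level of 65.6, 64.2 and 56.1 CPM in FAD5x libraries and 40.4, 64.2 and 75.6 CPM in Control overlapped between the groups. As for mt-Nd6, counts of mt-Tp can include heavy-strand RNA, since strand use is not stated. Of the 15 transfer RNA genes that passed the filter, 0 were called by edgeR or limma-voom and 1, mt-Tk, by DESeq2, and 2 were higher at an unadjusted p under 0.05 by edgeR. Those were mt-Tk and mt-Tg, the glycine transfer RNA gene between mt-Co3 and mt-Nd3. mt-Tg had 77, 75 and 66 counts in FAD5x and 14, 51 and 20 in Control (log2 fold change 1.11 ± 0.46, adjusted p = 0.219 by edgeR). In 4 of the 15, mt-Ti, mt-Tk, mt-Tg and mt-Th, all FAD5x libraries lay above all Control libraries, and in 0 all lay below, where 14.1% of all tested genes lay above and 13.2% below in this way. mt-Th, the histidine transfer RNA gene, had 5.19, 5.27 and 5.22 CPM in FAD5x libraries and 3.41, 4.54 and 3.40 CPM in Control. mt-Ti, the isoleucine transfer RNA gene, had 0.741, 1.64 and 0.678 CPM in FAD5x libraries and 0.605, 0.393 and 0.446 CPM in Control (log2 fold change 1.07 ± 0.52, adjusted p = 0.278 by edgeR). The 11 other tested transfer RNA genes had log2 fold changes between -0.06 and 0.60. Within the transfer RNA sum, mt-Tk took 1.19, 1.17 and 1.49% in FAD5x and 0.496, 0.483 and 0.379% in Control, with no overlap. mt-Tg also took a larger share without overlap, at 2.28, 2.45 and 2.74% in FAD5x and 0.867, 1.89 and 0.842% in Control. mt-Tc, the cysteine transfer RNA gene, took a smaller one, at 10.3, 11.4 and 11.5% in FAD5x and 12.6, 12.4 and 13.3% in Control. The other 12 of the 15 overlapped. Each of these 3 had an exact permutation p of 0.1, the smallest possible, or 0.5 adjusted over 15 genes. A threshold of 0.05 was thus out of reach for any share. Other genes were not set against the transfer RNA sum, so the 3 of 15 have no background share beside them. Small nuclear and nucleolar RNA genes, other short RNAs, held 0.0117, 0.00860 and 0.0170% of the total in FAD5x and 0.0162, 0.0130 and 0.0133% in Control.

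The 7 transfer RNA genes that failed the filter had at most 24 counts in a library. mt-Tf, the phenylalanine transfer RNA gene at the start of the annotated circle, had 0 counts in all 6 libraries. With 3 counts taken as the limit, this allows up to 0.124 to 0.167 CPM in FAD5x and 0.165 to 0.173 CPM in Control. These limits, unlike the other CPM values, are per unscaled library total. mt-Tv had 5, 4 and 3 counts in FAD5x and 1, 2 and 1 in Control, mt-Ta 5, 8 and 5 in FAD5x and 1, 2 and 2 in Control, and mt-Tt 10, 3 and 5 in FAD5x and 2, 2 and 2 in Control. mt-Tm had 21, 24 and 5 counts in FAD5x and 6, 7 and 3 in Control. mt-Ts1 had 7, 13 and 5 in FAD5x and 1, 13 and 8 in Control, and mt-Td 8, 7 and 4 in FAD5x and 0, 7 and 6 in Control. In the edgeR fit without the filter, the 6 of these genes with counts had log2 fold changes between -0.05 and 1.56 with standard errors of 0.710 to 1.29, and 0 were called (adjusted p = 0.398 to 0.979) or had an unadjusted p under 0.05.

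Nuclear genes with near-identical sequence, remnants of mitochondrial DNA in the chromosomes, bear on the middle of the circle. Genes on chromosome 1 that match mt-Co1, mt-Co2, mt-Atp6, mt-Co3, mt-Nd3, mt-Nd4l and mt-Nd4 had counts that followed those of the mitochondrial genes. Gm28437 had 99.7, 99.8 and 99.9% of the mt-Co3 count in FAD5x and 99.8, 99.9 and 99.9% in Control. mt-Nd1, mt-Nd6, mt-Cytb, mt-Atp8 and both ribosomal RNA genes had no such copy among the annotated transcripts. The counts do not show whether a read that matches both places was counted for each or divided between them, so levels of genes with and without a copy may stand on different scales. The copies together held 3.57, 3.97 and 3.74% of the total in FAD5x and 3.09, 4.46 and 3.56% in Control.

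For 3 of these 7 copies the ratio to the mitochondrial gene did not overlap between the genotypes. Gm28438 differs from mt-Nd3 by T3C, counted from the first base of mt-Nd3, shown here in capitals.
mt-Nd3, first 36 bases: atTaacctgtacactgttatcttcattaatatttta
Gm28438, first 36 bases: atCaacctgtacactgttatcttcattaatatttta
Gm28438 had 86.6, 89.9 and 89.5% of the mt-Nd3 count in FAD5x and 96.3, 94.5 and 95.7% in Control. Gm28439, identical to the first 876 of the 1378 bases of mt-Nd4, had 46.5, 46.3 and 45.8% of the mt-Nd4 count in FAD5x and 49.1, 51.1 and 50.2% in Control. The ratio of Gm10925 to mt-Atp6 was also lower in FAD5x, at 109, 108 and 109% in FAD5x and 112, 109.5 and 109.6% in Control. Each of the 3 had an exact permutation p of 0.1, the smallest possible, or 0.267 adjusted over the 8 copy measures. No ratio thus passed the threshold. Ratios of unrelated gene pairs were not taken, so the 3 of 7 have no background share beside them. The other 4 ratios overlapped between the groups.

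**Figure D5:**
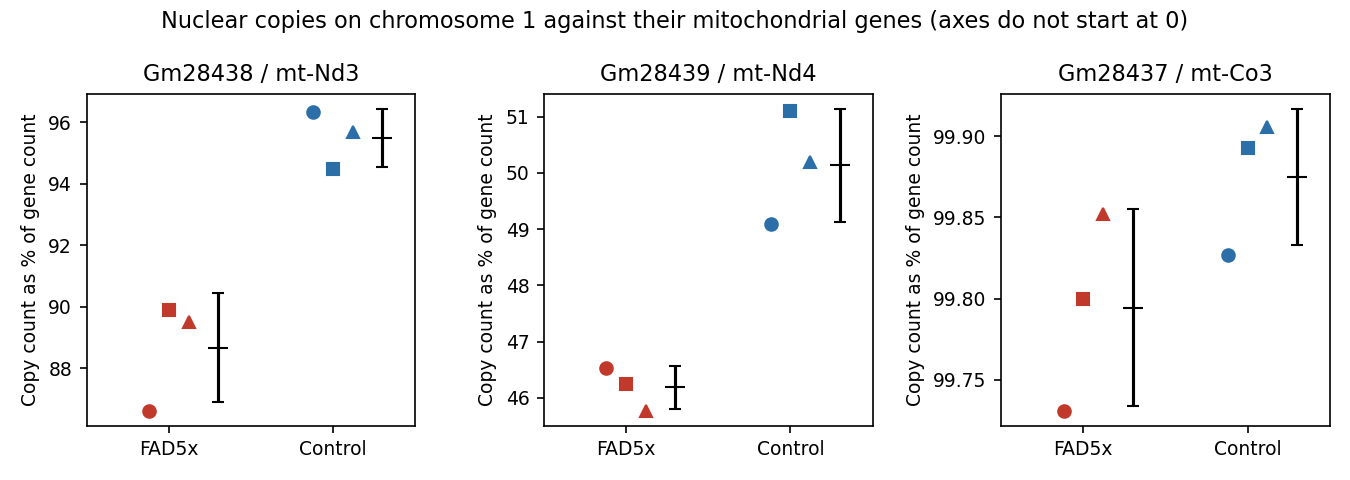
Count of a chromosome 1 copy as a percentage of the count of its mitochondrial gene, per library, for mt-Nd3, mt-Nd4 and mt-Co3 (circle, square and triangle are replicates 1, 2 and 3; the bar is the mean with its SD; axes do not start at 0). The FAD5x libraries lie below all Control libraries in the first 2 panels, and the groups overlap in the panel for mt-Co3.

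The nuclear genes that maintain, transcribe, process and translate the mitochondrial genome held no call by edgeR. The lists had 18 maintenance and transcription genes, 30 RNA processing genes and 36 translation genes, with median log2 fold changes of 0.07, 0.06 and 0.06. At an unadjusted p under 0.05, edgeR had 0, 3 and 2 of them higher and 0, 0 and 1 lower, while DESeq2 called 0, 2 and 0 higher and limma-voom 0. Polrmt, the mitochondrial RNA polymerase, had a log2 fold change of 0.11 ± 0.13, Polg, the replicative polymerase, 0.01 ± 0.13, and Grsf1, an RNA-binding protein of mitochondrial RNA granules, -0.09 ± 0.17. Lars2, the leucyl transfer RNA synthetase, varied widely within both groups, with 509, 2405 and 2059 CPM in FAD5x libraries and 2356, 1256 and 1420.0 CPM in Control. Of 10 regulators of mitochondrial biogenesis 0 were called by edgeR, DESeq2 or limma-voom and 3 were lower at an unadjusted p under 0.05 by edgeR, and Ppargc1a, a coactivator of that programme, had 41.0, 44.0 and 46.1 CPM in FAD5x libraries and 75.4, 48.3 and 59.5 CPM in Control (log2 fold change -0.48 ± 0.17, adjusted p = 0.149 by edgeR). Of 25 genes of mitochondrial membranes and matrix, 0 were called by these 3 tools and 3 were higher at an unadjusted p under 0.05 by edgeR, with a median of 0.12. Of 12 nuclear or non-polyadenylated RNAs, 7 were tested and 0 called by edgeR, with a median of 0.01, 1 higher at an unadjusted p under 0.05 and 1 called by DESeq2.

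The nuclear genes whose products assemble with the mitochondrially encoded subunits lay mostly above 0. The median log2 fold change was 0.35, 0.19, 0.18 and 0.23 over the nuclear genes of complexes I, III, IV and V, beside 0.07 over the 13 mitochondrial protein genes, and complex II, which has no mitochondrially encoded subunit, had 0.20. In complex I, 35 of 36 nuclear genes lay above 0, beside 4 of 7 mitochondrial ones and 8801 of all 17074 tested genes. Of the 36, 2 rose by edgeR, where 1.76% of all tested genes rose, Ndufb8 (log2 fold change 0.68 ± 0.11, adjusted p = 0.0211) and Ndufa13 (0.56 ± 0.12, adjusted p = 0.0476). In complex IV, Cox5b rose by edgeR (0.59 ± 0.13, adjusted p = 0.0457). The summed level of the complex I list was 1917 to 2286 CPM in FAD5x and 1689.7 to 1757 CPM in Control, with groups that did not overlap. The summed levels of complex V (2739.7 to 3341 CPM in FAD5x and 2619.7 to 2728 CPM in Control) and complex II (503 to 569 CPM in FAD5x and 455 to 467 CPM in Control) did not overlap either, and those of complexes III and IV did. At an unadjusted p under 0.05, edgeR had 21 complex I and 2 complex IV genes higher. DESeq2 called 7 and 2 genes of these lists higher and limma-voom 1 and 0. Over all 17074 tested genes, DESeq2 called 763 higher and limma-voom 247. No all-gene count at the unadjusted threshold is given, so the unadjusted counts of this and the other lists have no background beside them. Complexes III and V and complex II had 0 calls by edgeR, DESeq2 and limma-voom, with 3, 5 and 0 genes higher at an unadjusted p under 0.05 by edgeR. The difference between nuclear and mitochondrial genes was not tested. All 3 calls were lost when any single Control library or FAD5x replicate 1 was left out, and with a replicate block. Without FAD5x replicate 3, 1 gene was called. Without FAD5x replicate 2, 1 complex I gene and 1 complex IV gene were called.

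Markers of the cell types in cortex were measured beside these values. In bulk tissue, fewer cells of a type and less RNA per cell cannot be told apart. The summed level of 7 neuronal markers was 4843 to 7971 CPM in FAD5x and 4893 to 5913 CPM in Control, and that of 6 astrocyte markers 3424 to 6036 CPM in FAD5x and 3917 to 5675 CPM in Control. Those of 6 oligodendrocyte markers were 3796 to 7381 CPM in FAD5x and 2715 to 3971 CPM in Control, and those of 6 microglial markers 284 to 548 CPM in FAD5x and 189.5 to 294 CPM in Control. Each of these lists overlapped between the groups, as did those of oligodendrocyte precursors, endothelial cells, pericytes, choroid plexus and blood, and 0 of these markers were at 0 in all libraries. The microglial marker C1qa and the myelin gene Mobp rose, and the endothelial receptor Kdr fell, by edgeR (log2 fold change 2.24 ± 0.26, adjusted p = 0.00726 for C1qa, log2 fold change 1.09 ± 0.24, adjusted p = 0.0474 for Mobp and log2 fold change -1.10 ± 0.20, adjusted p = 0.0282 for Kdr). Log2 fold changes lay above 0 for all 6 microglial and all 6 oligodendrocyte markers. The endothelial list was split, with 2 of 5 markers above 0, as was the neuronal list, with 3 of 7. Of the pericyte and smooth muscle markers 0 of 5 lay above 0, with a median of -0.63. Of the astrocyte markers 1 of 6 did, with a median of -0.23. Meningeal fibroblast markers did not overlap, with 9.92 to 40.2 CPM in FAD5x and 86.4 to 301 CPM in Control, and Col3a1, a fibrillar collagen, fell (log2 fold change -3.37 ± 0.32, adjusted p = 0.00178 by edgeR). Striatal markers were high in FAD5x replicate 1, at 1035 CPM, against 203 and 92.5 CPM in FAD5x replicates 2 and 3 and 96.6 to 161 CPM in Control. The part of cell make-up in the mitochondrial values was not tested.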

How the data were processed

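Per the labels, RNA was isolated from frozen cortical tissue with TRIzol and RNeasy columns, and the library kit is not named. Per the submitters' processing notes, the tools included cutadapt, STAR 2.7.11b and featureCounts, with the build GRCm39. The values are unnormalised read counts per gene, as the authors deposited them; of 47729 lines, 1 was dropped for a non-numeric entry. Symbols, lengths and gene order came from GENCODE M21 (GRCm38), which matched 47223 identifiers; it is another build, so positions are not printed.

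The test was run in R 4.3.3 with edgeR 4.0.16 (filterByExpr, trimmed mean of M values, robust quasi-likelihood F-test, two-sided), and CPM used the same scaling. Standard errors are the log2 fold change divided by the square root of F. The biological coefficient of variation was 23.3%. Nuclear copies were sought with blastn 2.17.0 against GENCODE transcripts, at 95% identity over 50% of either length. Alternatives used limma 3.58.1 (voom), DESeq2 1.42.0, other scalings, no filter, a replicate block and each library left out. In simulated counts for 17074 genes, 83 of 100 genes changed 2-fold were called, 99 of 100 changed 4-fold, and 3 with no gene changed. Beside the changed genes, 16 of 16874 unchanged genes were called. The changed genes were drawn from those above the median level, so these rates do not cover thinly counted members. Of 270 list entries 2 were not matched. The members and lists were chosen with earlier results of these data known. Named genes are all members, then per list up to 4 called genes by smallest p or, with none called, those among the 2 with the highest level. Sequences are GENCODE M21 transcripts. The Gm10925 surplus, the total without copies and the small nuclear RNA share were chosen after the data had been seen.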

Additional observations from a re-analysis of the deposited data

How the results depend on the processing

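The count of mitochondrial genes called higher was 1. It was 2 with DESeq2, 0 with a replicate block and 0 to 1 when each library was left out, with 0 without Control replicate 1 or 3, and 0 were called lower under all 13 alternatives. Over all genes 300 were called higher and 237 lower, with 763 and 722 by DESeq2, 574 and 489 with no filter, 36 and 36 with the replicate block, and 39 to 604 and 42 to 385 when each library was left out. Over the accompanying nuclear lists 3 were called higher, with 1 by limma-voom, 12 by DESeq2, 1 with library totals only, 6 with no filter, 0 with the replicate block and 0 to 3 when each library was left out. The cause of these changes was not tested. mt-Atp8 kept its direction under all 13 alternatives, with log2 fold changes of 0.88 to 1.08, and missed the threshold with the replicate block (adjusted p = 0.0774) and without Control replicate 1 or 3. Same-numbered libraries did not deviate together (correlations of -0.04, -0.09 and -0.31 over 17074 genes). With 3 libraries per group this cannot show whether the numbers pair the samples, and the labels do not say. Of the 29 tested members that were not called, 16 changed sign under at least 1 alternative. The log2 ratio of the mitochondrial share was 0.08 to 0.14 over the 5 other denominators and sums and -0.03 to 0.24 when each library was left out, within 1 SD of 0.10. The count of messenger shares that did not overlap was 4 with overlapping genes joined and 6 to 8 when each library was left out. Counts of 0 to 24 kept 7 transfer RNA genes below the filter.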
